A study of Mus musculus with 2 samples.

Results

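The vascular microRNAs described here are 5 of the 2202 microRNA genes counted in the hippocampus of young mice. They were chosen by name, with Ensembl identifiers matched to symbols in GENCODE M21. Mir126a (ENSMUSG00000065540.1) is the endothelial gene and Mir126b (ENSMUSG00000105799.1) is its partner on the opposite strand. Mir143 (ENSMUSG00000065445.3), Mir145a (ENSMUSG00000065592.2) and Mir145b (ENSMUSG00000098366.1) are the genes of mural cells, the smooth muscle cells and pericytes that wrap vessels. The samples were 2 biological replicates from B6CASTF1/J males aged 10 days, labelled as layer of hippocampus tissue and called hippocampus here. Which layer is meant is not stated in these labels. Each label names 3 males, and the labels give no treatment or mutation. B6CASTF1/J mice are F1 offspring of the C57BL/6J and CAST/EiJ strains, so all samples share this genotype. The labels give different animal numbers but the same donor identifier for both replicates, so the spread between them may in part be technical. There is 1 group and no contrast between conditions, so the data address how abundant these microRNAs were and how far the libraries differed.

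MicroRNAs are cut from hairpin precursors and, loaded into Argonaute, repress transcripts that pair with their seed, bases 2 to 8 of the mature strand. Mir126a lies within Egfl7, a gene for a protein secreted by endothelial cells, and its 3p product is known for relieving repression of growth factor signalling in vessels by acting on Spred1 and Pik3r2. Mir143 and Mir145a are processed from a shared precursor driven by serum response factor and myocardin in smooth muscle, and they are known for keeping that muscle in its contractile state. In brain, miR-126 is used as a marker of endothelium, and miR-143 and miR-145 as markers of mural cells.

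The sequences of the Mir126 locus are shown because its strands carry different microRNA genes, on which the assignment of every read there depends. In the RefSeq table for GRCm38.p6, entries for Mir126a and Mir126b were matched, 2 of the 5 genes, and Mir143, Mir145a and Mir145b are given by name. Capitals mark the mature products in the hairpins and the seed in the mature products, all 5′ to 3′. The RefSeq table holds 1 mature product of Mir126a and 2 of Mir126b, and any product it lacks is not marked. Reads were counted per gene, so the products of a hairpin were not told apart.
Mir126a hairpin, chr2:26591357-26591429, plus strand: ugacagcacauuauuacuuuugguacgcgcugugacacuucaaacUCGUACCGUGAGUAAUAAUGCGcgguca
miR-126a-3p: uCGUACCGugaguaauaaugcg
Mir126b hairpin, chr2:26591363-26591420, minus strand: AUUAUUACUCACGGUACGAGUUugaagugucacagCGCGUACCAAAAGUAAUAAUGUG
miR-126b-5p: aUUAUUACucacgguacgaguu
miR-126b-3p: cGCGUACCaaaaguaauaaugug
The Mir126b hairpin is the exact reverse complement of bases 7 to 64 of the 73-base Mir126a hairpin. Only 6 bases before it and 9 bases after it belong to Mir126a alone. miR-126a-3p and miR-126b-5p lie opposite each other over 19 bases. The 3p products of the hairpins share a run of 10 bases, AGUAAUAAUG, and their seeds share 6 bases, CGUACC, shifted by 1 position. None of the other 1737 mature sequences in the table had the seed of miR-126a-3p, and the same held for each miR-126b product.

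Mir126a was among the most abundant microRNA genes in reads that fit a single place. It had 32510 sense-strand reads in replicate 2 and 71696 in replicate 1. Scaled to counts per 1000000 counts on microRNA genes (CPM), these were 9301 CPM in replicate 2, against 14888 CPM in replicate 1, with a mean of 12094 ± 3951 CPM (SD, n = 2). Replicate 1 was the higher library for this gene. The shares of all gene counts were 0.930% in replicate 2 (exact 95% interval 0.920 to 0.940) and 1.49% in replicate 1 (1.478 to 1.4996). These intervals, like all intervals and limits for 0 here, cover counting error only. Its rank among 2202 genes was 26 in replicate 2 and 14 in replicate 1, and 17 by mean level. Reads that fit several places were not counted, so genes with copies may rank too low. Mir126a lies on chromosome 2 on the plus strand (GRCm38, the assembly called mm10, as for all positions). Of 9 Egfl7 transcripts in GENCODE M21 that span the hairpin, 8 have it in an intron and 1 overlaps it with an exon. In whole tissue, fewer cells of a type and less RNA per cell cannot be told apart.

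Mir126b, the gene on the opposite strand, had 0 sense reads in both libraries. The 0 limits its level to at most 0.858 CPM in replicate 2 and to 0.623 CPM in replicate 1, the levels of 3 counts. Reads opposite to the Mir126b annotation were many, at 32508 in replicate 2 and 71687 in replicate 1. These are the Mir126a reads that touch the shared bases, since they differ from the Mir126a sense counts by 2 reads in replicate 2 and 9 in replicate 1. Mir126a itself had 0 antisense reads in both libraries. With 0 of 32510 reads antisense in replicate 2 and 0 of 71696 in replicate 1, the exact 95% intervals of the sense share began at 99.99% in each library.

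The deposited unstranded counts lose this microRNA almost entirely. Mir126a had 2 unstranded counts in replicate 2 and 9 in replicate 1, since a read overlapping genes on both strands is set aside as ambiguous when strand is ignored. That removed 99.99% of the Mir126a reads in each library. The table holds 32 pairs of microRNA genes that overlap on opposite strands. Of the reads lost over all of them, Mir126a made up 15.3% in replicate 2, where it was the third largest loss after Mirlet7e and Mir191. It made up 25.5% in replicate 1, where it was the largest. Mir143 and Mir145a, which have no such partner, had the same counts with and without strand. Among the 2138 genes with no opposite-strand partner, antisense reads were 0.00295% of the reads in replicate 2 and 0.00362% in replicate 1, so reads on the wrong strand were rare in these libraries.

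**Figure D1:**
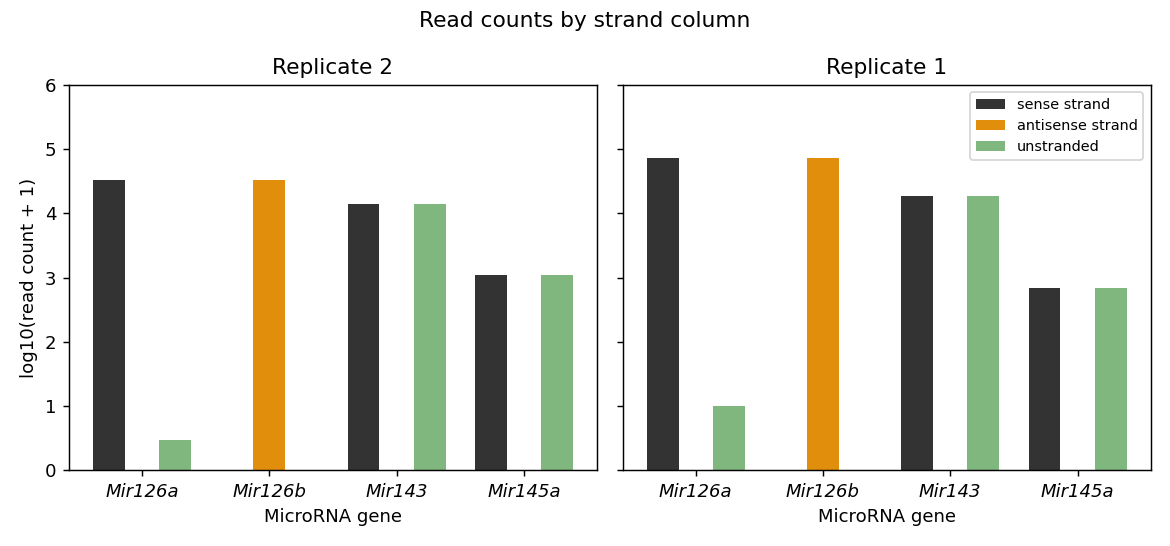
Read counts of 4 genes in the deposited columns for the sense strand, the antisense strand and both strands together, as log10(count + 1), with replicate 2 on the left and replicate 1 on the right; a missing bar is a count of 0. Mir126a is high on the sense strand and near the floor without strand, at 2 reads in replicate 2 and 9 in replicate 1, and its reads reappear as antisense to Mir126b.

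Mir143 was the most abundant of the mural genes and the steadiest of the vascular set. It had 14229 sense reads in replicate 2 and 18404 in replicate 1. These were 4071 CPM in replicate 2, against 3822 CPM in replicate 1, with a mean of 3946 ± 176 CPM (SD, n = 2). The libraries were close to each other, with a coefficient of variation of 4.46%, against 32.7% for Mir126a and 55.0% for Mir145a. Mir143 ranked 47 in replicate 2 and 48 in replicate 1. It lies on chromosome 18 at 61649196-61649258 on the minus strand.

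Mir145a, the partner of Mir143 in smooth muscle, was far less abundant and differed between the libraries. It had 1116 sense reads in replicate 2 and 677 in replicate 1, or 319 CPM in replicate 2 against 141 CPM in replicate 1, with a mean of 229.9 ± 126.4 CPM (SD, n = 2). Replicate 2 was the higher library for this gene, the reverse of Mir126a. Its rank was 163 in replicate 2 and 193 in replicate 1. The gene lies at 61647825-61647894 on the minus strand of chromosome 18, with 1301 bases between it and Mir143. GENCODE M21 places no host gene over either hairpin and puts the nearest end of the noncoding gene Carmn 366 bases from Mir143, while the RefSeq annotation of GRCm38.p6 extends Carmn over 61645878-61665538, which contains both.

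Mir145b lies 7374304 bases from Mir145a at 69022199-69022273, on the same chromosome and strand, with no annotated host gene in GENCODE M21. It had 0 reads on either strand in both libraries, with the same limits as Mir126b. The hairpins of Mir145a and Mir145b share a run of 17 bases, and how reads within it were assigned was not tested. None of the 5 genes shared 20 or more consecutive bases with another microRNA gene in its own orientation.

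**Figure D2:**
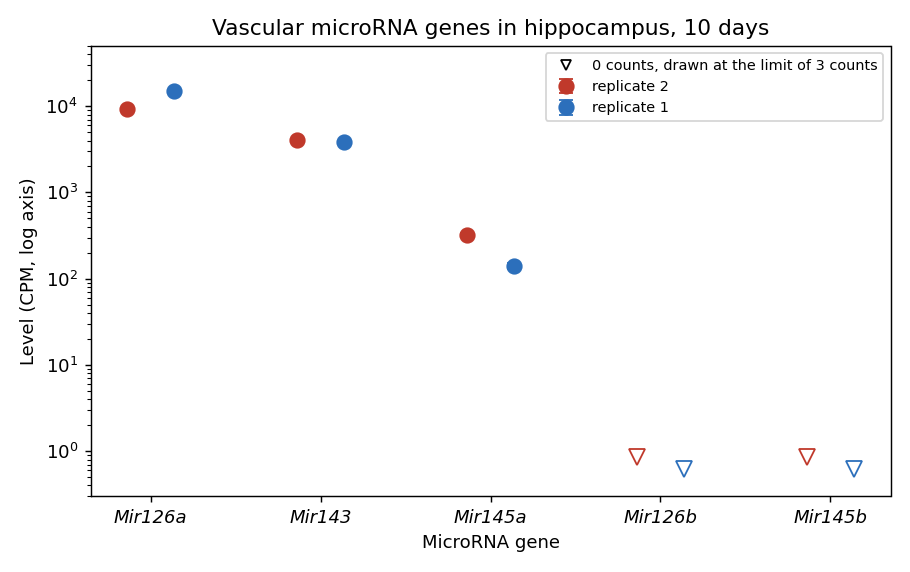
Level of each of the 5 genes in CPM on a log axis, with 1 point per library, replicate 2 left of replicate 1; bars are exact 95% intervals of the counting error and are mostly smaller than the points, and open triangles mark genes with 0 counts at the limit of 3 counts. The order of Mir126a, Mir143 and Mir145a is the same in both libraries, with Mir126b and Mir145b at 0.

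The order Mir126a, Mir143, Mir145a held in both libraries, and the ranges of neighbours in that order did not overlap. Each read stands for a whole small RNA, so CPM was not divided by hairpin length. Equal capture of different microRNAs was not analysed here. The lowest Mir126a level was 2.28 times the highest Mir143 level, and the lowest Mir143 level was 11.97 times the highest Mir145a level, both on the CPM scale. Divided by hairpin length, the mean levels were 165.7 CPM per base for Mir126a, 62.6 for Mir143 and 3.28 for Mir145a, which leaves the order as it was.

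Ratios within a library do not depend on how the library is scaled. Mir126a had 2.28 reads for each Mir143 read in replicate 2 and 3.90 in replicate 1. The difference of these log2 ratios, replicate 2 minus replicate 1, was -0.77 (exact conditional 95% interval -0.81 to -0.73). Mir143 had 12.8 reads for each Mir145a read in replicate 2 and 27.2 in replicate 1, a difference of -1.09 on the log2 scale (-1.24 to -0.95). Mir126a had 29.1 reads for each Mir145a read in replicate 2 and 106 in replicate 1, a difference of -1.86 (-2.003 to -1.722). For Mir126a over Mir143 and Mir143 over Mir145a, the gene with more reads had a smaller excess in replicate 2, by more than counting error. The ratio of Mir126a to Mir145a is the product of these ratios, so its difference follows from theirs.

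The unequal yield of Mir143 and Mir145a was set beside other neighbouring microRNA genes, a comparison chosen after the values were seen. It covered 51 adjacent pairs on the same strand, no more than 10000 bases apart, with a mean of at least 100 counts each and no near-identical copy. The mean levels of the 2 genes of a pair differed by a median of 2.55 on the log2 scale, and by 4.10 for Mir143 and Mir145a, with 13 of the 51 pairs further apart. The change in a pair's log2 ratio between libraries had a median size of 0.69. For Mir143 and Mir145a it was 1.09, and 12 of the 51 pairs changed by more. Pairs of 1 cluster share genes and neighbours, so these counts describe the libraries and are not a test.

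Set against all genes, 1 of the 3 vascular genes with reads was called as differing between the libraries. The reads of each gene with at least 10 counts were tested for their split between the libraries (exact binomial test, two-sided, expected split set by the library totals), with Benjamini-Hochberg adjustment over all 540 such genes. Calling a gene took both an adjusted p below 0.05 and a log2 ratio, replicate 2 over replicate 1, of at least 1 in size. This compares the 2 libraries, not conditions, and called 18.7% of the genes, 11.5% as higher in replicate 2 and 7.22% as lower. At this depth the adjusted p alone passed 55.7% of genes. Mir145a was called higher in replicate 2, with a log2 ratio of 1.18 and an adjusted p of 2.57e-65 by the exact binomial test. Among all tested genes, 18.1% had a log2 ratio at least as large in size, close to the share called. Mir126a had a log2 ratio of -0.68, or 1.60 times less in replicate 2, with an adjusted p too small to be represented, and was not called because the ratio lies within 1. A ratio of that size or larger was found for 40.2% of tested genes. Mir143 had a log2 ratio of 0.091 (adjusted p = 4.6e-08, exact binomial test) and was not called, and 90.7% of tested genes differed by at least as much. With DESeq2 size factors its ratio was -0.080, so no direction is given for Mir143.

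**Figure D3:**
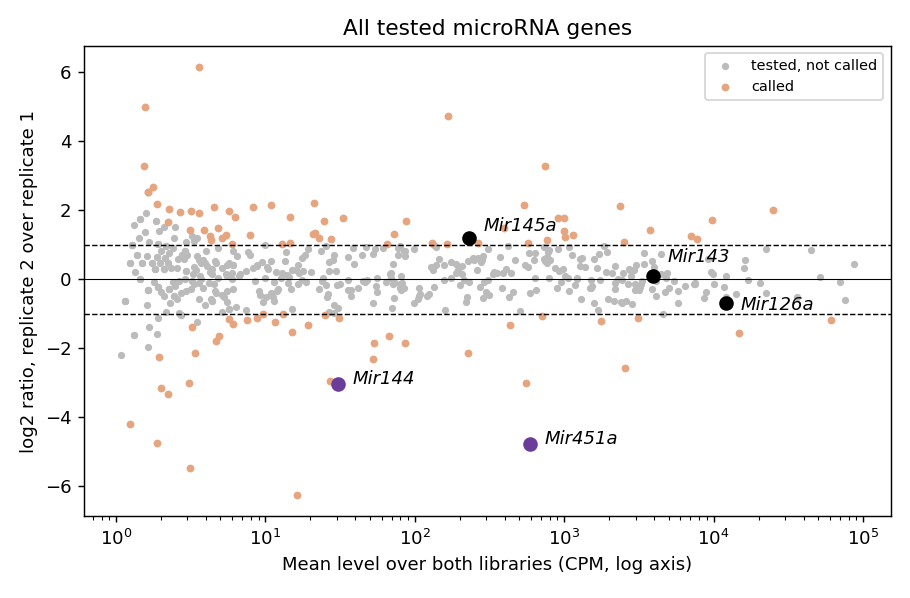
Log2 ratio of replicate 2 over replicate 1 against the mean level in CPM (log axis) for the 540 tested microRNA genes; dashed lines mark ratios of 1 and -1, orange points were called, black points are the vascular genes and purple points are the red blood cell genes Mir451a and Mir144. Mir126a and Mir143 lie between the dashed lines, Mir145a lies just above the upper one, and Mir451a and Mir144 lie far below the lower one.

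Each vascular gene with reads had close neighbours in level among other microRNA genes. For each of the 3 genes with reads, the ranges of the 3 genes ranked directly above and the 3 directly below all overlapped its own, 18 of 18 neighbours, so single ranks are not resolved. Mir433, Mir99b and Mir744 stood above Mir126a, and Mir23b, Mir100 and Mir652 below. Mir361, Mir181d and Mir181b-2 stood above Mir143, and Mir17, Mir378a and Mir674 below. Mir212, Mir101b and Mir18 stood above Mir145a, and Mir29c, Mir6540 and Mir505 below.

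Likeness over both libraries was measured as the distance in log2(CPM + 1), over only 2 libraries. The gene nearest to Mir126a was Mir100, at a distance of 0.11, with 9900 CPM in replicate 2 against 14190 CPM in replicate 1. Mir652 and Mir744 followed at 0.31 and 0.39. Nearest to Mir143 was Mir361 at 0.13, with 4057 CPM in replicate 2 against 4195 CPM in replicate 1, followed by Mir181b-2 at 0.18 and Mir330 at 0.26. Nearest to Mir145a was Mir29c at 0.09, with 310 CPM in replicate 2 against 148 CPM in replicate 1, followed by Mir3475 at 0.34 and Mir6540 at 0.47. Mir29c and Mir181b-2 share bases with another gene, so their levels are uncertain.

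Other microRNAs described in endothelial cells or in vessel growth mostly had log2 ratios within 1 between the libraries. Of 16 such genes, 14 were tested, 1 was called higher in replicate 2 and 0 lower, beside 11.5% and 7.22% of all tested genes, and the median log2 ratio was 0.22, beside 0.17 over all tested genes. The gene called was Mir27b, of the miR-23b cluster, at 1407 CPM in replicate 2 against 608 CPM in replicate 1, and it shares bases with a copy. Mir23b was the most abundant of the list at 12087 ± 589 CPM, and Mir130a, known in human endothelial cells for repressing the antiangiogenic factors GAX and HOXA5, followed at 5441 ± 158 CPM (SD, n = 2 for both). The list as a whole made up 3.35% of counts in replicate 2, against 3.25% in replicate 1, a mean of 3.30% that was 1.47% without genes that share bases with a copy. The share of Mir126a was 0.930% in replicate 2 against 1.49% in replicate 1. Of the 16 genes, 7 share bases with another gene, and Mir19a had 0 counts in both libraries.

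The other mural and smooth muscle microRNAs had ratios in both directions, and those called were called in the direction of Mir145a. Of 10 genes 6 were tested, 3 were called higher in replicate 2 and 0 lower, beside 11.5% and 7.22% of all tested genes, with a median log2 ratio of 0.80 (1.27 without genes that share bases with a copy). Mir22, a microRNA abundant in muscle, had 15061 CPM in replicate 2, against 4577 CPM in replicate 1. Mir497, of the miR-15/16 family, was next in abundance, at 1836 CPM in replicate 2 against 1469 CPM in replicate 1, and was not called. Mir21a and Mir195a, the neighbour of Mir497, named after their values were seen, had log2 ratios of 1.78 and 1.27 and were called. Mir28a and Mir490 had log2 ratios of -0.36 and -0.46, the other direction, and were not called. Mir21a and Mir22 are also found in other cell types, including glia and neurons. The list made up 2.13% of counts in replicate 2, against 0.874% in replicate 1, with Mir22 as its largest part. The Mir1a and Mir133a genes of muscle, 4 in all, had 0 counts in both libraries, and each shares bases with another gene.

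MicroRNAs of perivascular fibroblasts and mesenchyme were low apart from Mir140. Of 7 genes 5 were tested, 1 was called higher in replicate 2 and 0 lower, beside 11.5% and 7.22% of all tested genes. The median log2 ratio of 0.04 was -0.13 on DESeq2 size factors, -0.03 on TMM sizes and 0.46 without genes that share bases with a copy, so no direction is given for the list. The gene called was Mir140, known from cartilage, at 3808 CPM in replicate 2 against 880 CPM in replicate 1. Mir214, a gene of mesenchyme, had 56.9 CPM in replicate 2, against 55.2 CPM in replicate 1. The summed list made up 0.393% of counts in replicate 2, against 0.0996% in replicate 1. Mir140 alone held 13312 of its 13738 counts in replicate 2 and 4236 of its 4797 in replicate 1, so these shares are mainly those of Mir140.

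Blood held in the vessels is another source of RNA in this tissue, and 2 of the 3 red blood cell genes differed strongly between the libraries. These 2 were called lower in replicate 2 and 0 were called higher, beside 7.22% of all tested genes called lower and 11.5% called higher. Mir451a, which is cut by Argonaute 2 in red blood cells, had 41.5 CPM in replicate 2, against 1143 CPM in replicate 1. Its neighbour Mir144 had 6.58 CPM in replicate 2, against 54.6 CPM in replicate 1. Mir486 had 28.3 CPM in replicate 2, against 31.6 CPM in replicate 1 and was not called. The summed list made up 0.00764% of counts in replicate 2, against 0.123% in replicate 1, so the sum of these genes, nearly all of it Mir451a in replicate 1, and Mir126a had their higher level in the same library. The part of blood in the difference of Mir126a was not tested.

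White blood cell and microglia genes had ratios in both directions. All 5 were tested, 2 were called higher in replicate 2 and 0 lower, beside 11.5% and 7.22% of all tested genes, with a median log2 ratio of 0.15 (-0.02 with DESeq2 factors, 0.58 without a gene that shares bases with a copy). Mir150, of lymphocytes, had 776 CPM in replicate 2, against 372 CPM in replicate 1, a log2 ratio of 1.06 that no longer passed with TMM sizes (0.99) or DESeq2 factors (0.89), which left 1 of the 5 genes called. Mir142, of leukocytes in general, had 32.9 CPM in replicate 2, against 41.3 CPM in replicate 1, and was not called. Mir155, of activated immune cells, had 84.1 CPM in replicate 2, against 78.3 CPM in replicate 1. Mir223, of myeloid cells and named after its value was seen, rested on 47 counts in replicate 2 and 15 in replicate 1. The list made up 0.0910% of counts in replicate 2, against 0.0498% in replicate 1, and Mir150 alone held 2712 of its 3180 counts in replicate 2 and 1793 of its 2399 in replicate 1.

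**Figure D4:**
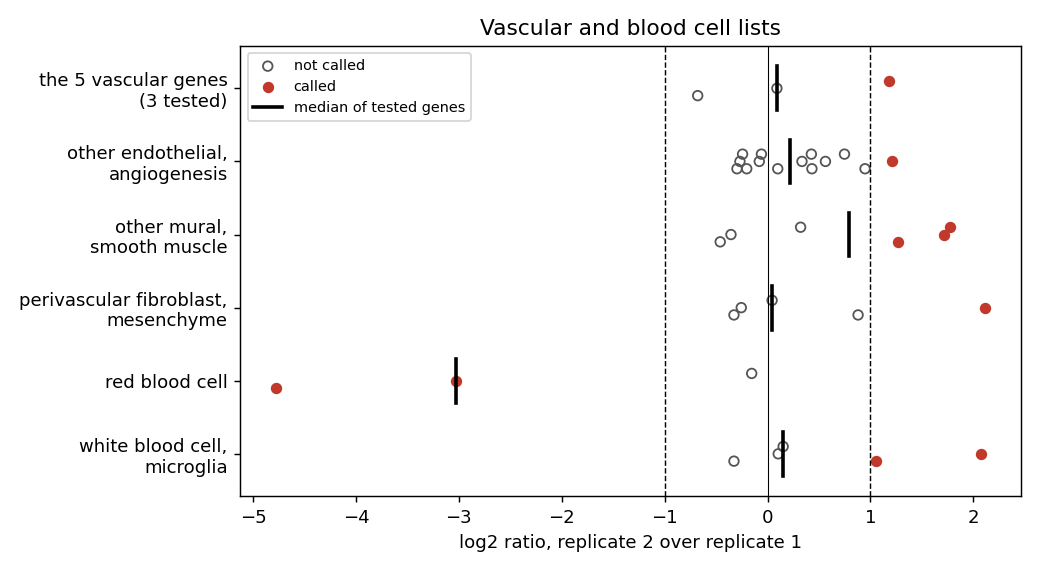
Log2 ratio of replicate 2 over replicate 1 for each tested gene of the 5 vascular genes and of 5 lists of vascular and blood cell microRNAs; filled points were called, bars are medians and dashed lines mark ratios of 1 and -1. Mir145a and 3 other mural genes lie to the right of the upper line, as do Mir27b, Mir140, Mir150 and Mir223 of the other lists. Mir451a and Mir144 lie to the left of the lower one.

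The summed shares of lists of other cell types were also unequal between the libraries. The choroid plexus and ciliated cell list made up 0.533% of counts in replicate 2, against 0.258% in replicate 1, led by Mir449a and Mir34c, microRNAs of multiciliated cells. Of its 7 genes 6 were tested, 3 were called higher and 0 lower, beside 11.5% and 7.22% of all tested genes, with a median log2 ratio of 1.44. The genes called were Mir204, Mir34b and Mir211, and Mir211 rested on 10 counts in replicate 2 and 2 in replicate 1. Mir449a and Mir34c had log2 ratios of 0.80 and 0.92 and were not called. The oligodendrocyte list made up 0.174% in replicate 2 and 0.104% in replicate 1, a mean of 0.139% that was 0.0580% without genes that share bases with a copy, and was led by Mir219a-2 and Mir338, which promote myelination. Of its 4 genes 3 were tested and 0 were called, beside 18.7% of all tested genes, with a median log2 ratio of 0.76. All 3 had an adjusted p below 0.05 by the exact binomial test, and only the ratio minimum kept them uncalled. Mir219a-1, which shares bases with a copy, was called lower with TMM sizes (-1.05) and DESeq2 factors (-1.15). The neuronal list made up 10.2% in replicate 2 and 7.68% in replicate 1, led by Mir139 and Mir149, and 1 of its 11 tested genes, Mir132, was called higher and 0 lower, no larger a share than the 11.5% of all tested genes called higher. Mir149 itself had 19256 CPM in replicate 2, against 25508 CPM in replicate 1, a log2 ratio of -0.41, and was not called. The summed shares of these 3 lists, like Mir145a, were higher in replicate 2, and their part in its difference was not tested. The neuronal share covers uniquely assigned reads only, and of the 13 genes of its list 9 have a copy that shares bases. That list was chosen with earlier results of these data known, so its share cannot check the labelled tissue.

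The depth on microRNA genes was 3495401 counts in replicate 2 and 4815761 in replicate 1. Reads that fit several places, left out of the gene counts, were 39.8% of all reads in replicate 2 and 37.7% in replicate 1.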

How the data were processed

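MicroRNA libraries were made from total RNA of 2 hippocampus samples and, per the labels, cover fragments under 30 nt. The authors deposited raw read counts per microRNA gene, 1 file per library, on mm10 with GENCODE M21 per the submitters' notes. The aligner and counter are not stated there. The files hold 3 columns of counts: unstranded, sense (used here) and antisense. Reads that were unmapped, fitted several places or lay outside genes are lines of totals and were left out of library sizes.

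CPM is counts per 1000000 sense counts on genes. Log2 ratios have 0.5 counts added. The limit for a count of 0 is 3 counts. Intervals of shares are Clopper-Pearson at the 95% level. A copy is a microRNA gene sharing at least 20 consecutive bases. The edgeR quasi-likelihood test needs a contrast and was not run; edgeR and DESeq2 gave scaling factors only. The library comparison was tested on simulated data that held counting error only. That test does not cover further spread between replicates.

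The 5 genes and all lists were chosen with earlier results of these data known. Genes named beside them were the 3 directly above and below in mean CPM, the 3 nearest in log2(CPM + 1) and the 2 most abundant of each of 8 lists. Any other gene named from a list was named after its values were seen. Mir92a-1 and Mir146a were not analysed here. Alternatives covered scaling, filters, thresholds, strand, hairpin length, copies and replicates. Software was DESeq2 1.42.0, edgeR 4.0.16, R 4.3.3, SciPy 1.17.1 and Python 3.11.15.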

Additional observations from a re-analysis of the deposited data

How the results depend on the processing

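No paired analysis was possible because the labels give 1 group. The call of Mir145a and its direction held under all 10 alternatives of the library comparison, with log2 ratios of 1.01 to 1.19. Filters and looser ratio minima left its ratio at 1.18, so they could not remove the call. The scalings moved it most, to 1.11 with TMM sizes and 1.01 with DESeq2 factors, just above the minimum of 1. Mir126a passed with no ratio minimum and with a minimum of 0.58, at -0.68 in both, and Mir143 passed with no ratio minimum, at 0.091. With DESeq2 size factors, which shift the median of all tested genes from 0.17 to 0.00094, Mir143 had -0.080. The count of 101 differing genes was 301 with no ratio minimum, 175 with a minimum of 0.58 and 59 with at least 100 counts. The share of calls higher in replicate 2 was 61.4%, against 53.1% with TMM and 44.4% with DESeq2 factors.

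With all reads as denominator, mean levels were 4506 CPM for Mir126a, 1448 for Mir143 and 82.6 for Mir145a, and over reads that fit a single place Mir143 had 3396. On unstranded counts Mir126a fell to 1.30 CPM and Mir143 had 4196, and the log2 ratio of Mir126a reversed to -11.90 over Mir143 and -7.68 over Mir145a, which the loss of reads shared with Mir126b accounts for by construction.

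Leaving out a replicate gave 9301 to 14888 CPM for Mir126a, 3822 to 4071 for Mir143 and 141 to 319 for Mir145a. The log2 ratios ran from 1.19 to 1.96 for Mir126a over Mir143, 3.67 to 4.76 for Mir143 over Mir145a and 4.86 to 6.73 for Mir126a over Mir145a. A count of differing genes could not be had from a single library. Depth limits the genes at 0 to below 0.858 and 0.623 CPM.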
